A study of Mus musculus with 13 samples.

Results

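The Sonic hedgehog pathway was followed through the peak lists of the oligodendrocyte lineage by 9 of its core genes, out of 21938 protein-coding genes of the annotation. The 9 genes were the ligand Shh, the receptors and coreceptors Ptch1, Boc and Hhip, the transducers Smo and Sufu, and the transcription factors Gli1, Gli2 and Gli3. For each gene the listed H3K4me3 and H3K27me3 peaks within 2 kb of any annotated transcription start site (TSS) or inside the gene were collected, together with the listed OLIG2 peaks inside the gene and in the 5 kb upstream of it. This gave 106 listed peaks, of which 86 passed the filter of the study (FDR below 0.05, with a fold enrichment over the control above 3.5 for the histone marks and above 5 for OLIG2).

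Sonic hedgehog is a secreted ligand that binds PTCH1 and so frees SMO from inhibition. Active SMO, working at the primary cilium, releases the GLI factors from SUFU, and GLI proteins then act on target genes that include Ptch1, Hhip and Gli1 themselves. In the ventral neural tube this signal specifies the progenitors that express Olig2 and give rise to oligodendrocyte precursors. H3K4me3 marks the promoters of active or poised genes, H3K27me3 is laid down by the Polycomb machinery at silenced genes, and a stretch that carries both is called bivalent. OLIG2 is a basic helix-loop-helix factor of this lineage, and such factors bind the E-box, CANNTG.

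Histone marks were profiled by ChIP-Seq in 3 cell types, with 1 library for each mark and cell type and all cells labelled untreated. Neural stem cells (NSCs) were bought as cultures from the cortex of CD-1 mice at embryonic day 14.5 and grown with EGF and FGF, whereas the strain label of these samples reads C57BL/6. Oligodendrocyte precursor cells (OPCs) and newly formed oligodendrocytes (NFOs) were immunopanned, for PDGFRα and GalC, from the brain at postnatal day 7 (C57BL/6). OLIG2 ChIP-Seq was available for OPCs and NFOs and was not analysed here for NSCs, and RIP-Seq (sequencing of RNA recovered with OLIG2 or with control IgG) is labelled NFO but described as NSC in the methods. With 1 library per condition there was no replicate error and no test, so every comparison of stages below is between libraries.

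The antibody label of each histone sample names the other mark than its title, and titles were followed. Of the filtered peaks, 55.8 to 75.1% lay within 2 kb of a protein-coding TSS in the 3 lists titled H3K4me3, against 9.65 to 27.9% in those titled H3K27me3. Peak names show single-end reads for NSCs and paired-end reads for OPCs and NFOs, and the median width of a filtered H3K4me3 peak was 939 bp for NSCs and 1048 bp for OPCs but 268 bp for NFOs. The NFO list named few genes overall: 38.6% of protein-coding genes had an H3K4me3 peak near a TSS there, against 62.7% in NSCs and 60.5% in OPCs. None of the 4 myelin genes taken as NFO markers (Mbp, Mag, Mog and Cnp) had a filtered H3K4me3 peak near a TSS in the NFO list, whereas 4 of 5 OPC markers, 3 of 4 NSC markers, 2 of 4 neuronal, 1 of 4 astrocyte, 1 of 4 endothelial and 0 of 4 microglial markers did. With all listed peaks 1 of the 4 had one, and Mag and Mog had no filtered peak in the NSC or OPC list either, so the NFO list differed from those lists at Mbp and Cnp. The NFO H3K4me3 list thus gave no support to its label at these genes, and every loss of H3K4me3 in NFOs reported below is a loss from that list. What part the library had in those losses was not tested.

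All 9 genes had a filtered H3K4me3 peak near a TSS in NSCs and all 9 in OPCs, where the shares of all protein-coding genes were 62.7% and 60.5%. In NFOs the mark remained at 6 of 9, against 38.6% of all genes, and it was missing at Boc, Smo and Gli1. The same 6 of 9 genes held it in all 3 lists, against 37.2% of all genes. At Sufu, among these 6, the NFO peak lay at the start of the neighbouring gene Actr1a. H3K27me3 near a TSS was listed at 2 of 9 genes in NSCs (9.50% of all genes), 4 of 9 in OPCs (12.8%) and 3 of 9 in NFOs (7.67%). Ptch1, Smo and Sufu had no filtered H3K27me3 peak near a TSS in any of the 3 lists.

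**Figure D1:**
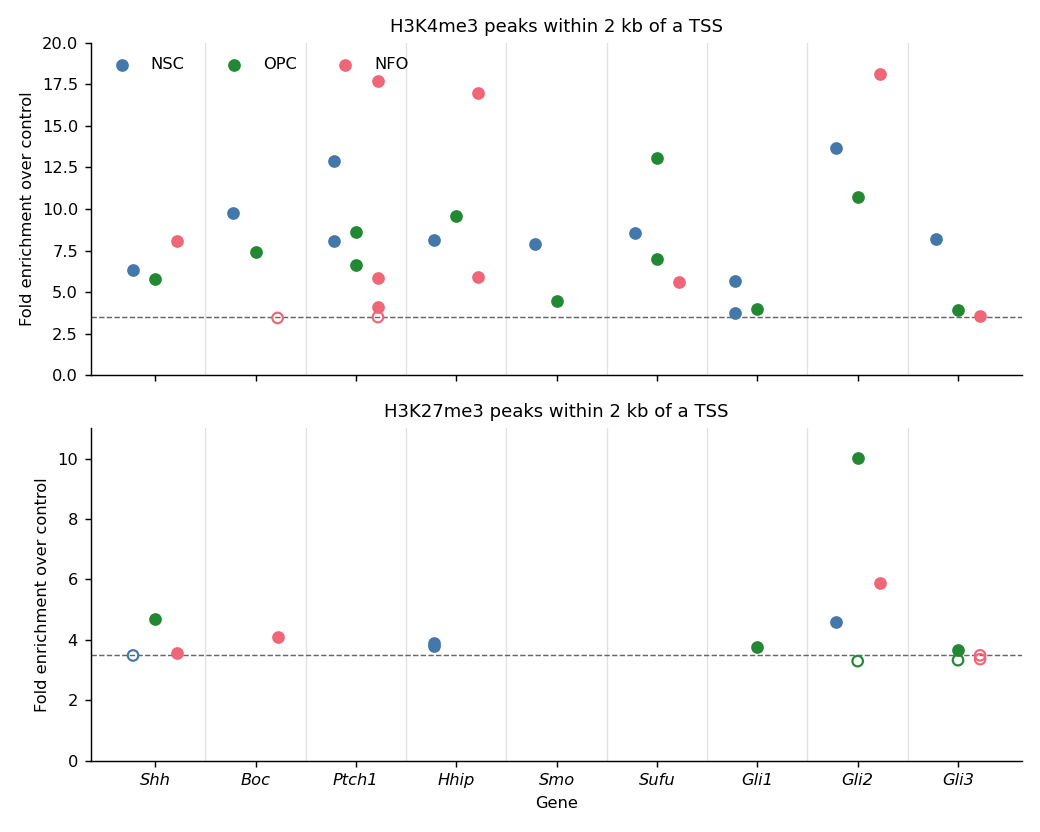
Each point is 1 listed H3K4me3 (top) or H3K27me3 (bottom) peak within 2 kb of a TSS of the gene on the x axis, with its fold enrichment over the control on the y axis and the stage as colour; filled points passed the filter of the study, open points did not, and the dashed line is the fold enrichment of 3.5. Boc, Smo and Gli1 have no filled NFO point for H3K4me3, and Gli2 has filled points of both marks in all 3 stages, reaching 18.1 for H3K4me3 in NFOs and 10.0 for H3K27me3 in OPCs.

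The sequences of 5 OLIG2 peaks are shown first, since the OLIG2 results refer back to them. They are the filtered OLIG2 peak of highest fold enrichment at each of the 5 genes that had one, and 2 of them (Ptch1 and Sufu) were listed in both OPCs and NFOs. The sequences are from the mm10 reference, 5′ to 3′ on the strand of the gene, with each E-box (CANNTG) in capitals. They are chr16:44531285-44531514 (− strand, intron 1 of Boc), chr13:63567657-63567892 (− strand, intron 1 of Ptch1), chr6:29743238-29743473 (+ strand, intron 1 of Smo), chr19:46470229-46470464 (+ strand, intron 8 of Sufu) and chr13:15657036-15657271 (+ strand, intron 7 of Gli3), with introns numbered in the longest coding transcript.
Boc OPC: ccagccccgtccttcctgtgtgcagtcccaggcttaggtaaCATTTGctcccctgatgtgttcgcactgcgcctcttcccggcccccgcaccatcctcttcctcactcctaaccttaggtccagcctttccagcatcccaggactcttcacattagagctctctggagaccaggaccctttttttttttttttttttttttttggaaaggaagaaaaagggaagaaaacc
Ptch1 NFO: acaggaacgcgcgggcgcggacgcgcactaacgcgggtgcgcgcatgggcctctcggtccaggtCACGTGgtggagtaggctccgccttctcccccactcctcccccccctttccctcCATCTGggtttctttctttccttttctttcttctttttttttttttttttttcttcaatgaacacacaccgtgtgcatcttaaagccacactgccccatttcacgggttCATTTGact
Smo NFO: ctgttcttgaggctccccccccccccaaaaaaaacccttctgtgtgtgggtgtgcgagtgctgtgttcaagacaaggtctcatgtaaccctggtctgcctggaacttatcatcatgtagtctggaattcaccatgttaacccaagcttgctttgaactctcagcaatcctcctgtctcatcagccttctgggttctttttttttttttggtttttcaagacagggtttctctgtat
Sufu NFO: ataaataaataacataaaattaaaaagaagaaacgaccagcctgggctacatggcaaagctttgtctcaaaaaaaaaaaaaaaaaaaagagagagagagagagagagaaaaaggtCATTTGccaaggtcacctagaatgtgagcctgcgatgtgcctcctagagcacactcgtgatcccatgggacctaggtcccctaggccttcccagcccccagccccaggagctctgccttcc
Gli3 NFO: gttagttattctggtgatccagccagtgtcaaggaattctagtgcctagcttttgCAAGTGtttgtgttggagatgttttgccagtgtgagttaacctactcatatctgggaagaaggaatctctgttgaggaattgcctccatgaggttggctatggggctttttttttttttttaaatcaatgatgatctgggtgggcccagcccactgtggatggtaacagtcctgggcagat

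Of these, the Ptch1 place had the highest enrichment. The NFO peak there reached a fold enrichment of 34.8, rank 72 of 14076 filtered NFO peaks, and the OPC peak (chr13:63567675-63567904) reached 23.0, rank 227 of 6566. The 2 peaks shared 218 bp. Both lay inside A930032L01Rik, a 957 bp lncRNA gene (chr13:63567098-63568054, − strand) that the annotation places within intron 1 of Ptch1, and their nearest Ptch1 TSS was 1922 bp from the NFO peak and 1940 bp from the OPC peak. The printed sequence holds 3 E-boxes, the middle one being the reverse complement of CAGATG, and a run of 48 pyrimidines follows that one.

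The ligand, Shh (ENSMUSG00000002633.4, chr5:28456815-28467256, − strand), had both marks near its single TSS, but after the filter not on the same bases within a stage. In NSCs H3K4me3 covered 3280 bp there (fold enrichment 6.34), in OPCs 2694 bp (5.76) and in NFOs 195 bp (8.05). H3K4me3 was thus listed near the start of the ligand gene in each stage, but the narrow NFO peak shared no base with the OPC peak. An NFO peak of 366 bp inside the OPC peak was listed at 3.38, below the filter. H3K27me3 was listed across the TSS in NSCs over 1904 bp at a fold enrichment of 3.48, just under the filter, and overlapped the H3K4me3 peak by 1500 bp. In OPCs it passed at 4.68 over 734 bp, 295 bp away from the H3K4me3 peak. In NFOs it passed at 3.56 over 829 bp, 1343 bp away. Inside the gene 2 further H3K27me3 peaks passed in OPCs and 3 in NFOs, with fold enrichments up to 4.82 and 4.84, and no OLIG2 peak was listed. The lncRNA gene 9530036O11Rik, read from the other strand, has an annotated TSS in or within 500 bp of the H3K4me3 peak of each stage and of the OPC H3K27me3 peak. The gene itself begins farther off, at chr5:28458274. The lncRNA gene Gm26894 has a TSS in or within 500 bp of the NSC and OPC H3K4me3 peaks. These peaks therefore cannot be assigned to Shh alone.

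Boc, a coreceptor that binds the ligand at the cell surface (ENSMUSG00000022687.12, chr16:44485049-44558897, − strand), had H3K4me3 at its TSS in NSCs (9.75, 2552 bp) and OPCs (7.42, 1575 bp). In NFOs the peak there was listed at 3.44, below the filter, and an H3K27me3 peak of 314 bp passed at 4.09, 719 bp away. Boc was the only one of the 9 genes with H3K27me3 and without H3K4me3 near a TSS among the filtered NFO peaks. A narrow H3K4me3 peak in intron 1, centred 27508 bp from the TSS in NSCs, behaved differently from the one at the TSS. It was present in all 3 stages, at 14.0 for NSCs over 344 bp, at 14.1 for OPCs over 267 bp and at 8.30 for NFOs over 266 bp. The OPC OLIG2 peak printed above (9.20) overlapped it, by 189 bp in OPCs, and an OPC H3K27me3 peak below the filter (3.37) lay there too. This place was therefore listed in 5 of the 8 lists, across 3 targets, and the printed sequence holds a run of 28 pyrimidines or purines. Whether such features of the place set the peaks was not tested.

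Ptch1, the receptor that holds SMO inactive and is itself a hedgehog target (ENSMUSG00000021466.12, chr13:63508328-63573598, − strand, with 10 annotated TSSs), had H3K4me3 near a TSS in every stage and H3K27me3 in none. In NSCs 2 peaks covered 6825 bp (12.9) and 3465 bp (8.10), in OPCs 5211 bp (8.63) and 1384 bp (6.66). The width of the larger peak exceeded that of the widest peak near a TSS of 99.3% of genes with one in NSCs and of 99.3% in OPCs. In both stages this larger peak also covered the start of A930032L01Rik. The NSC peak of 3465 bp lay within 500 bp of a TSS of another lncRNA gene, Gm30655. In NFOs the same region was broken into peaks of 909 bp (17.7), 707 bp (5.84) and 357 bp (4.10), with a peak of 1905 bp at 3.496, just outside the filter. The strongest of these NFO peaks, chr13:63567507-63568415, contained the OLIG2 peaks of both stages in full. In OPCs 2 more OLIG2 peaks lay in intron 2, at 10.4 (chr13:63552598-63552827) and 7.27 (chr13:63551866-63552095), each with a CAGATG and with no listed peak of any other list on them.

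The consensus bound by GLI proteins, GACCACCCA, was searched on both strands of the filtered H3K4me3 peaks near a TSS, because Ptch1 is a textbook GLI target. Among the 9 genes it was found at 2 places, both at Ptch1. The first, chr13:63566435-63566443, lay 700 bp upstream of the TSS at chr13:63565735, outside any annotated exon of Ptch1, in the H3K4me3 peaks of NSCs, OPCs and NFOs, and 1340 bp from the summit of the NFO OLIG2 peak. The second, chr13:63573465-63573473, lay in the 5′ UTR of the transcript that starts at chr13:63573598, within the NSC and OPC peaks. Both are printed on the − strand with the motif, or its reverse complement, in capitals, from chr13:63566375-63566503 and chr13:63573455-63573483.
Ptch1 first match: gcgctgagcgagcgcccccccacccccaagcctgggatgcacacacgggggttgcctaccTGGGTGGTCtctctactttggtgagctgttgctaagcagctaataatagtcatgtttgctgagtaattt
Ptch1 second match: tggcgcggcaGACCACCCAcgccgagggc
Over all H3K4me3 peaks near a protein-coding TSS, the motif was in 1.83% for NSCs, 1.25% for OPCs and 0.609% for NFOs, and the wide Ptch1 peaks give it more bases to occur in. None of the 11 filtered OLIG2 peaks at the 9 genes held it, and 0.198% of all OPC and 0.227% of all NFO OLIG2 peaks did. It was also missing from the RefSeq promoters (250 bases before to 50 after the TSS, GRCm38.p6) of the 6 genes matched (Ptch1, Hhip, Smo, Sufu, Gli2 and Gli3), and 0.253% of 32851 promoters held it. Shh, Boc and Gli1 were not matched.

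**Figure D2:**
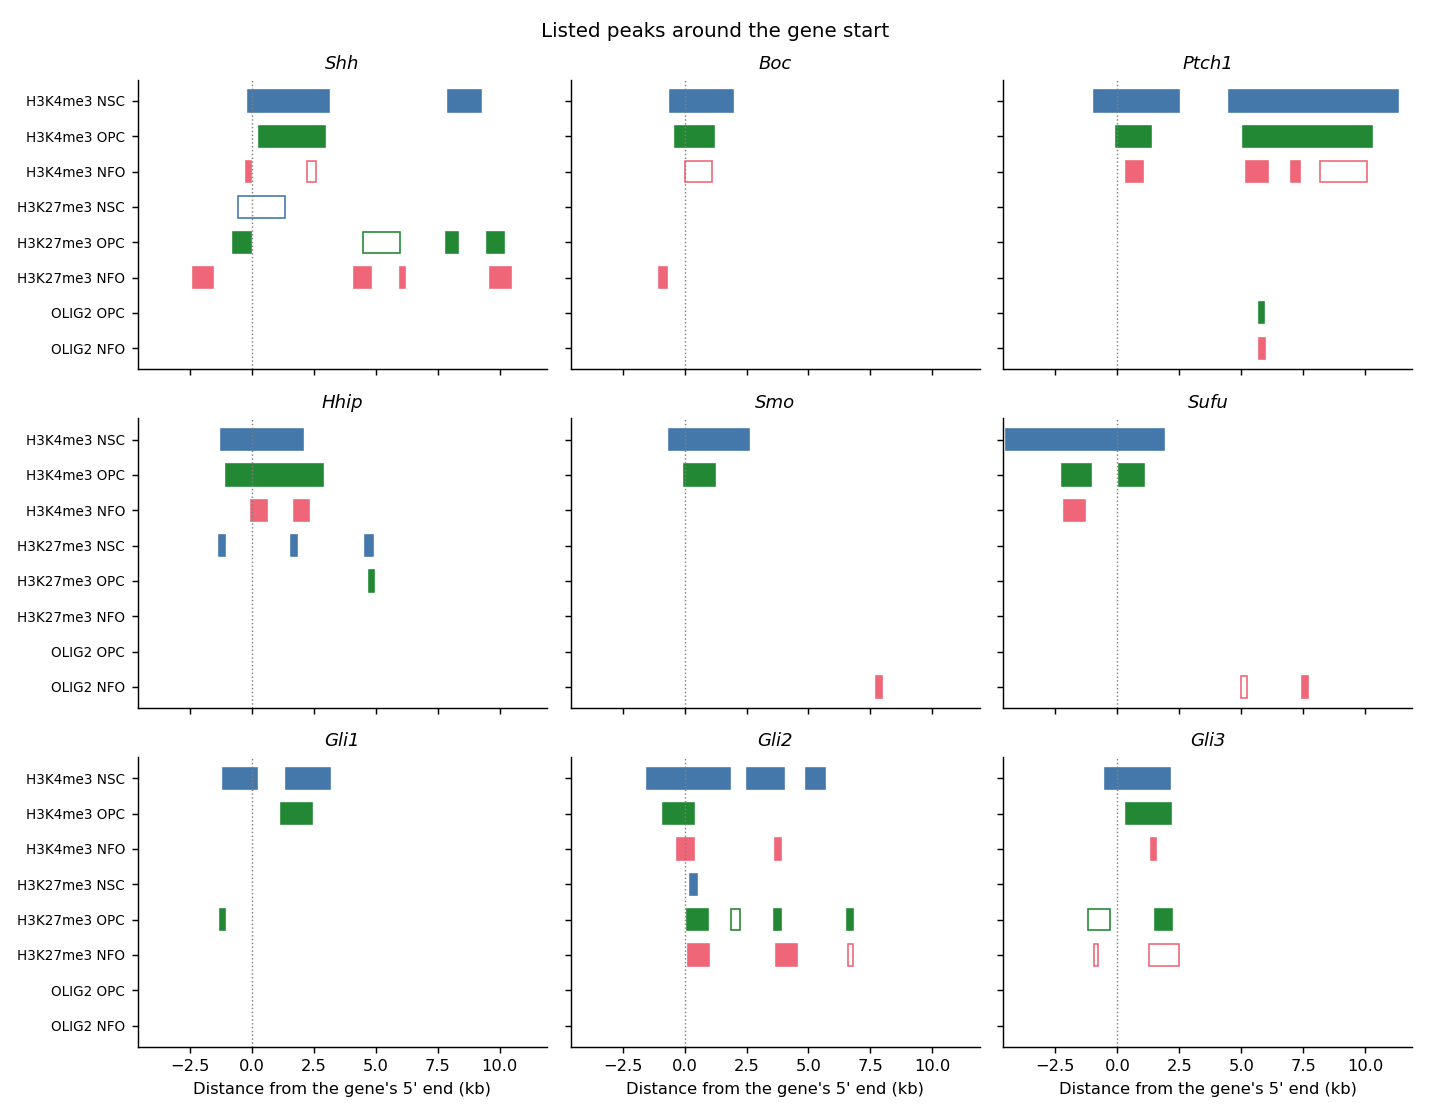
Bars are the listed peaks of each list (rows, coloured by stage) around the 5′ end of each gene, at distance 0 on the x axis in kb with the direction of transcription to the right; filled bars passed the filter and open bars did not. H3K4me3 of Ptch1 is broad in NSCs and OPCs and in separate pieces in NFOs, with the OLIG2 peaks of both stages over the first of the downstream pieces, and at Gli2 bars of both marks stack at the 5′ end in all 3 stages.

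Hhip, a membrane protein that sequesters hedgehog ligands (ENSMUSG00000064325.4, chr8:79965851-80058006, − strand), had an H3K4me3 peak of 3299 bp in NSCs (8.13) and of 3916 bp in OPCs (9.56). In NFOs 2 peaks were listed, of 610 bp at 17.0 and of 638 bp at 5.93. H3K27me3 near the TSS was seen in NSCs alone among the 3 lists, in 2 peaks of 274 bp at 3.81 and 3.89. Both overlapped the NSC H3K4me3 peak, by 274 and 177 bp, and so met the definition of a bivalent domain. Further inside intron 1, an NSC peak at 4.28 (294 bp) and an OPC peak at 5.56 (172 bp) also passed and overlapped each other, so H3K27me3 was listed within the gene in both stages. A width of 274 bp is the smallest in that list, shared by 13.0% of its filtered peaks. No OLIG2 peak was listed at Hhip.

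Smo, the transmembrane protein that carries the signal inward (ENSMUSG00000001761.7, chr6:29735503-29761365, + strand), had H3K4me3 at its start in NSCs (7.88, 3203 bp) and OPCs (4.48, 1235 bp). No peak was listed there in NFOs, even below the filter, and no H3K27me3 peak was listed in any stage. The single filtered OLIG2 peak, at 8.01 in NFOs, lay 7662 bp from the nearest TSS in intron 1 and held no E-box, as the printed sequence shows.

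Sufu, the cytoplasmic inhibitor of GLI proteins (ENSMUSG00000025231.17, chr19:46396896-46488804, + strand), had an H3K4me3 peak of 6351 bp in NSCs (8.57) that covered its TSS and the start of the neighbouring gene Actr1a, read from the other strand. In OPCs that domain was listed as 2 peaks. The stronger (13.0, 1188 bp) lay at the start of Actr1a, 1059 bp from the nearest Sufu TSS, and the weaker (7.01, 991 bp) at Sufu itself. The single NFO peak (5.58, 866 bp) lay 1293 bp from the nearest Sufu TSS, at the Actr1a end, so the H3K4me3 call for Sufu in NFOs rests on a peak at another promoter. No filtered H3K27me3 peak was listed. Intron 8 held OLIG2 peaks in both stages, at 9.46 in OPCs (chr19:46470257-46470486) and 10.9 in NFOs, which overlapped by 208 bp and carried 1 E-box, CATTTG. An NFO peak in intron 2 passed at 7.61 (chr19:46404360-46404595), and 1 more was listed at 4.96, just outside the filter.

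Gli1, the activator whose own transcription is the usual readout of the pathway (ENSMUSG00000025407.7, chr10:127329882-127341974, − strand), had the lowest H3K4me3 fold enrichment of the 9 genes in NSCs. Its highest fold enrichment near a TSS was 5.69 there, which exceeded that of 15.0% of genes with a peak, and 3.99 in OPCs, which exceeded that of 3.97%. In NFOs no H3K4me3 peak was listed at Gli1. An H3K27me3 peak of 207 bp passed at 3.78 in OPCs, upstream of the gene and apart from the H3K4me3 peak, and no OLIG2 peak was listed.

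Gli2, which acts mainly as an activator of target genes (ENSMUSG00000048402.14, chr1:118834132-119053619, − strand), was the one member bivalent in all 3 stages. Its H3K4me3 peak at the TSS measured 3376 bp for NSCs (13.6), 1258 bp for OPCs (10.7) and 689 bp for NFOs (18.1), and its fold enrichment exceeded that of 92.2 to 95.2% of genes with a peak in each list. H3K27me3 overlapped it in each stage, with 276 bp shared for NSCs (4.58), 258 bp for OPCs (10.0) and 217 bp for NFOs (5.88). The 6 peaks shared chr1:119053247-119053401, 155 bp with 5 CpG dinucleotides. This stretch overlaps annotated exon bases of Gli2, both coding and UTR, and an annotated Gli2 TSS lies within it. By fold enrichment the Gli2 H3K27me3 peak ranked above 60.5% of genes with one in NSCs, 91.7% in OPCs and 84.9% in NFOs. By width it ranked above 9.59% in NSCs, where it was 276 bp wide, 56.09% in OPCs and 39.45% in NFOs.

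Bivalent domains near a TSS were found at 2 of 9 genes in NSCs (Hhip and Gli2), 2 of 9 in OPCs (Gli2 and Gli3) and 1 of 9 in NFOs (Gli2). The shares of all protein-coding genes were 5.29%, 4.49% and 2.32%. Counts this small rest on single genes and, for Gli3 and for H3K27me3 at Hhip, on fold enrichments close to the filter. The 2 Hhip H3K27me3 peaks near the TSS lay 1569 and 1056 bp from it.

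Beyond the TSS, Gli2 also held H3K27me3 along its 219 kb. In OPCs 6 such peaks passed, at 3.73 to 9.33, in NFOs 3 (3.74 to 7.97) and in NSCs 1 (4.39). Of these, chr1:118914481-118914715 in OPCs (9.33) and chr1:118914480-118914722 in NFOs (7.97) lay on the same bases. The peaks chr1:119049725-119049998 in OPCs (8.69) and chr1:119049086-119049939 in NFOs (5.97) overlapped in part. NSCs and NFOs also had a filtered H3K4me3 peak at that second place. Counted per 100 kb of gene, the rate of filtered H3K27me3 peaks at Gli2 was 0.911 for NSCs, 3.19 for OPCs and 1.82 for NFOs, against 0.804, 0.789 and 0.422 over all protein-coding genes. OLIG2 was listed at Gli2 once, in NFOs at 4.36, below the filter.

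Gli3, the main source of the pathway's repressor form (ENSMUSG00000021318.15, chr13:15463235-15730026, + strand), had H3K4me3 over 2619 bp for NSCs (8.18), over 1823 bp for OPCs (3.89) and over 198 bp for NFOs (3.58). The OPC and NFO peaks were only just inside the filter, and exceeded 2.88% and 2.72% of genes with a peak in fold enrichment. The lncRNA gene Gm6556, read from the other strand, has a TSS in or within 500 bp of the NSC and OPC H3K4me3 peaks. Those peaks therefore cannot be assigned to Gli3 alone. The NFO peak lay 609 bp from the nearest Gli3 TSS. H3K27me3 near the TSS passed in OPCs at 3.68 and overlapped H3K4me3 by 654 bp. In NFOs it was listed at 3.49 over the whole of the H3K4me3 peak and at 3.36 upstream, both outside the filter. Deeper in the gene 5 H3K27me3 peaks passed in OPCs and 1 each in NSCs and NFOs, and Gli3 had 2.25 filtered H3K27me3 peaks per 100 kb in OPCs and 0.375 in both other lists. OLIG2 peaks of the 2 stages lay apart, at 7.57 in intron 2 in OPCs (chr13:15534293-15534522) and at 9.30 in intron 7 in NFOs.

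**Figure D3:**
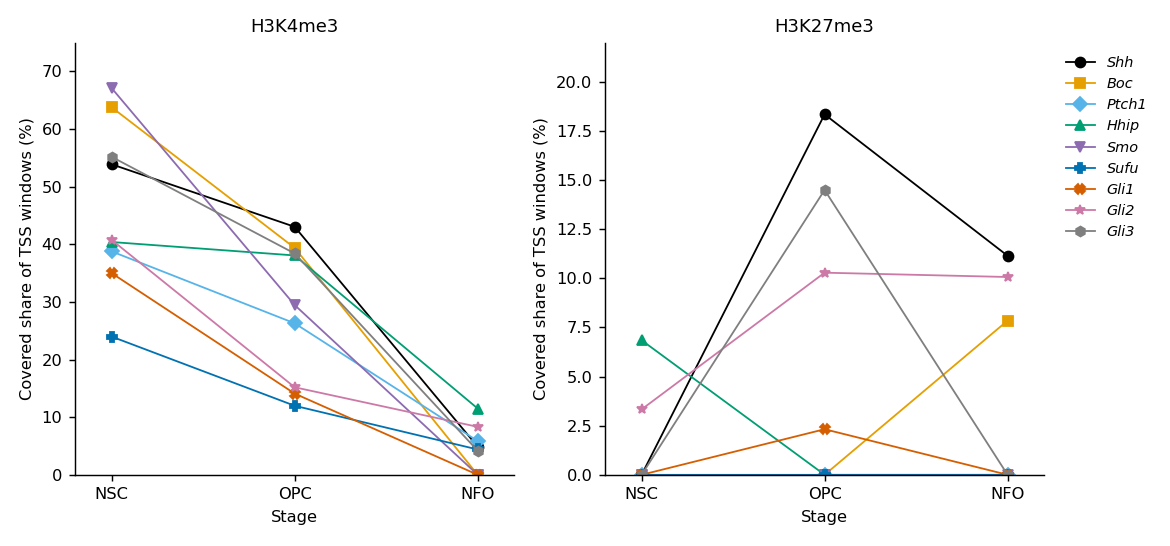
Lines join, for each gene, the share of the bases within 2 kb of its TSSs that filtered H3K4me3 (left) or H3K27me3 (right) peaks cover in the NSC, OPC and NFO lists, with 1 library behind each point. For all 9 genes the H3K4me3 share is lower in OPCs than in NSCs and lower again in NFOs, from 24.0 to 67.1% in NSCs to 0 to 11.5% in NFOs, and the H3K27me3 share is at most 18.4% (Shh in OPCs).

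The bases covered by H3K4me3 fell from list to list at every member. The share of the TSS windows under filtered peaks was 24.0 to 67.1% for NSCs, 12 to 43.0% for OPCs and 0 to 11.5% for NFOs, with Hhip highest in NFOs. The widest peak near a TSS had a median over the members of 3280 bp for NSCs, 1575 bp for OPCs and 664 bp for NFOs, and over all protein-coding genes with a peak of 2190, 1374 and 602 bp. The same order held for all genes, and the part of read type and library in it was not tested. Within each list, the median of the highest fold enrichment over the members stood at 8.18 beside 8.53 for all genes with a peak (NSCs), 7.42 beside 6.50 (OPCs) and 12.5 beside 5.43 (NFOs). In NFOs Ptch1, Hhip and Gli2 lay above 92.9 to 94.4% of those genes and Gli3 above 2.72%. The NFO peaks behind the values of Ptch1 (17.7) and Hhip (17.0) lay 1772 and 1719 bp from the nearest TSS of the gene, the former at the start of A930032L01Rik. Within 500 bp of their own TSSs the highest NFO values were 5.84 and 5.93, near the median of all genes, so the member median in NFOs rests on the more distant peaks.

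OLIG2 peaks passed the filter at 4 of 9 genes in OPCs (Boc, Ptch1, Sufu and Gli3) and 4 of 9 in NFOs (Ptch1, Smo, Sufu and Gli3), where the shares of all protein-coding genes were 15.0% and 25.0%. Ptch1, Sufu and Gli3 had peaks in both, 3 of 9 against 8.27% of all genes. Long genes hold more peaks, and the members are long, with a median of 73.8 kb against 17.4 kb. Of the 3444 protein-coding genes at least that long, 40.7% had an OLIG2 peak in OPCs and 62.7% in NFOs, against 3 and 2 of the 5 members of that length. Per 100 kb of gene and upstream window, the members had 0.665 peaks in OPCs and 0.554 in NFOs, against 0.357 and 0.701 over all genes. The ligand, Hhip, Gli1 and Gli2 had no filtered OLIG2 peak in either list.

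**Figure D4:**
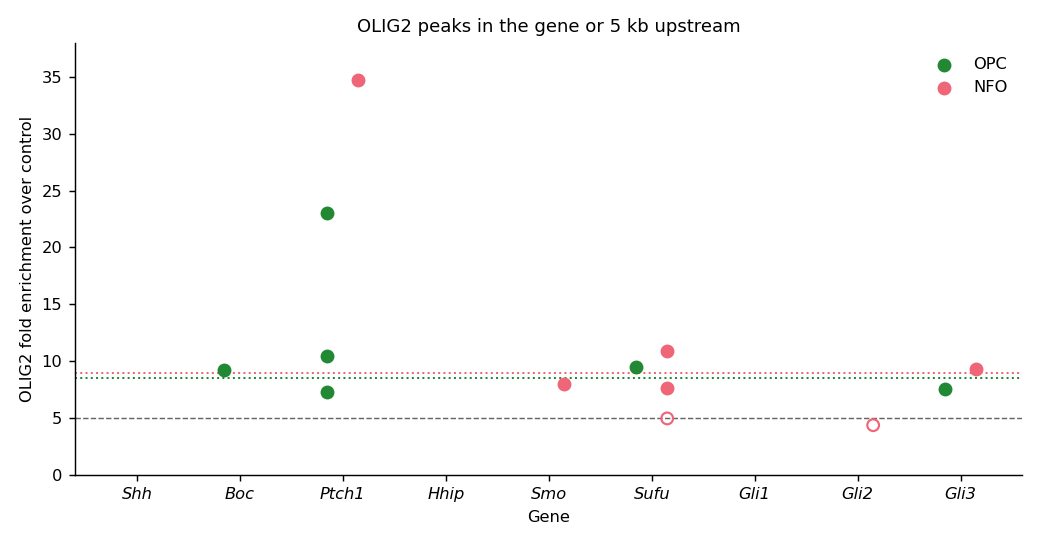
Each point is 1 listed OLIG2 peak in the gene or 5 kb upstream, by gene on the x axis and fold enrichment over the control on the y axis; filled points passed the filter, the dashed line is the fold enrichment of 5, and the dotted lines are the medians of all filtered OPC (8.52) and NFO (8.92) peaks. The Ptch1 peaks at 23.0 and 34.8 stand far above the others, which lie between 4.36 and 10.9.

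Of the 6 OPC peaks, 2 overlapped an NFO peak, those of Ptch1 and Sufu, against 14.8% of OPC peaks at all protein-coding genes. On histone peaks of the same stage, 2 of 6 OPC peaks (Boc and Ptch1) and 1 of 5 NFO peaks (Ptch1) lay on H3K4me3, and none lay on filtered H3K27me3. The corresponding shares of all filtered OLIG2 peaks were 12.9% and 6.92% for H3K4me3, and 7.72% and 1.75% for H3K27me3. Apart from the shared Ptch1 place, the 9 other filtered peaks exceeded 33.5 to 68.5% of the peaks of their library in fold enrichment.

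E-boxes were present in 5 of 6 OPC peaks and 4 of 5 NFO peaks, where 70.3% and 69.2% of all filtered OLIG2 peaks had one. CAGATG, searched with its reverse complement, was in 3 of 6 and 2 of 5 peaks, against 19.0% and 17.5%. The 3 OPC peaks with it were all at Ptch1. The 2 NFO peaks with it were the shared Ptch1 place, counted in both stages, and the intron 2 peak of Sufu. CAGCTG and CATATG were in none, against 14.1% and 6.31% of OPC peaks and 10.4% and 6.58% of NFO peaks. A run of at least 30 pyrimidines or 30 purines was present in 2 of 6 OPC and 3 of 5 NFO peaks, against 15.5% and 15.4% of all. The 2 places listed in both stages each held such a run, of 48 bases at Ptch1 and 46 at Sufu. Repeat-masked bases made up 39.4% of the NFO peak at the Ptch1 place and 60.6% at the Sufu place. The other filtered NFO peaks were masked at 51.3% (Gli3), 67.4% (Smo) and 96.6% (Sufu, intron 2). The median over all filtered NFO OLIG2 peaks was 33.9%. In OPCs it went the other way, with a median of 21.8% over the member peaks against 28.7% over all filtered OLIG2 peaks. Among the histone peaks, the NFO H3K4me3 peak at Shh (195 bp) lay wholly inside the OPC H3K27me3 peak there. Both began at the same base within a run of 79 pyrimidines or purines. The 3 Gli2 H3K27me3 peaks at the TSS covered such a run of 53. The OPC and NFO H3K4me3 peaks of Gli2 both began inside that run, at the first of the bases shared in all 3 stages. A run of at least 30 was in 1 of 6 NSC, 2 of 18 OPC and 2 of 10 NFO member H3K27me3 peaks. The shares over the filtered peaks of those lists were 23.9%, 12.7% and 15.4%. For H3K4me3 the member counts, in the same order, were 7 of 18, 4 of 12 and 4 of 11, against 20.4%, 10.4% and 7.49%. The part of these runs in the peak calls was not tested.

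The matched promoters all held more CpG dinucleotides than the median promoter, by differing margins. Of the 6 matched RefSeq promoters, 5 had a GC content of 67.3 to 76.3% and Sufu 56.3%, against a median of 52.7% over all promoters, and they held 12 (Sufu) to 47 (Ptch1) CpG dinucleotides against a median of 7. Ptch1 exceeded 98.6% of promoters in this count, Gli3 95.6%, Hhip 88.3%, Gli2 85.8%, Smo 68.6% and Sufu 60.4%. Gli2, bivalent in each stage, held 28.

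No transcript of the 9 genes appeared among the RIP-Seq sites of OLIG2 or of IgG. The 2 lists together held transcripts of 2.64% of protein-coding genes, so most genes are absent from them.

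Among 19 other hedgehog genes, H3K4me3 near a TSS passed at 16 for NSCs, 15 for OPCs and 8 for NFOs, beside 62.7%, 60.5% and 38.6% of all protein-coding genes. H3K27me3 passed at 4, 8 and 6, beside 9.50%, 12.8% and 7.67%. At the 6 transducers and regulators (Kif7, Gpr161, Evc, Evc2, Stk36 and Spop) it passed at 0 in each list, a number of genes too small to be read against such shares. OLIG2 was at 2 of 19 in OPCs and 5 of 19 in NFOs, near the 15.0% and 25.0% of all genes. The highest OLIG2 values of this list were at Mycn, a target that drives proliferation, at 31.5 in OPCs and 20.5 in NFOs, where H3K4me3 also reached 27.7 in NFOs. In NFOs alone, filtered OLIG2 peaks were at Lrp2 (14.1), Scube2 (10.5), Hhat (7.65) and Cdon (6.16), which act on ligand release or reception, and in OPCs alone at Evc2 (8.77), a protein of the ciliary base. Bivalent domains were at Ihh, Cdon and Foxf1 in NSCs, at Lrp2 in OPCs and at Foxf1 in NFOs. Ihh and Dhh, the other 2 mammalian hedgehog ligands, had filtered H3K27me3 in OPCs (4.10 and 4.93) and NFOs (5.35 and 4.27) and no H3K4me3 in either.

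By the pattern of presence and absence over the 8 lists, Ptch1 and Sufu were alike, with H3K4me3 in all stages, no H3K27me3 and OLIG2 in both stages, and 878 other protein-coding genes had that pattern. For Sufu the pattern depends on the NFO H3K4me3 peak at the start of Actr1a. Boc shared its pattern with 6 genes and Gli3 with 70. Among genes of the same pattern, the smallest distance in log2 fold enrichment was to BC004004 for Smo (0.094) and to Coro6 for Gli1 (0.131). For Ptch1 it was Uvrag (0.376), for Hhip Med14 (0.410), for Shh Pitx3 (0.541), for Sufu Dync1i2 (0.568), for Gli2 Bves (0.701), for Gli3 Papola (0.791) and for Boc Cemip2 (0.841).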

How the data were processed

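ChIP-Seq and RIP-Seq libraries of 13 mouse samples were grouped by title, and the 3 input libraries were not used. The authors aligned the reads uniquely to mm10 (Bowtie2), called broad histone peaks with MACS2 and OLIG2 peaks with SPP, and removed blacklisted regions. Each deposited peak has 2 values used here, a ratio (fold enrichment against the control) and the −log10 of its FDR. The RIP-Seq lists, made by the authors with ASPeak, give the tag count, the p-value of each site and the RPKM of the transcript. Read depth is not in the lists, so fold enrichments of different libraries are not known to share a scale; they are given side by side as deposited, with ranks within each list.

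The study's filter was applied here (FDR below 0.05, fold enrichment above 3.5 for histone marks and above 5 for OLIG2; for RIP-Seq an RPKM above 1, a p-value under 0.01 and a tag ratio above 2). Genes, TSSs and exons came from GENCODE M21 on the same build. Peaks were assigned with Python, pandas, NumPy and pysam; the assignment was checked on simulated peaks. A bivalent domain was an H3K4me3 peak overlapping an H3K27me3 peak of the same stage by at least 1 bp. Motifs were exact matches on both strands. Ranks are the share of protein-coding genes with a filtered peak whose highest value was lower.

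The 9 members, the 19 other pathway genes and the 29 cell type markers were chosen with earlier results of these data known; some genes of those lists are not reported here. Of the other pathway genes, those with a filtered OLIG2 peak or a bivalent domain are named, and Ihh, Dhh and the transducers are named beside their counts. The nearest gene of each member is the protein-coding gene outside these lists with the same presence or absence in the 8 lists and the smallest Euclidean distance in log2 of the highest fold enrichment. Sequences were printed for the OLIG2 peak with the highest fold enrichment at each member, and a place listed in both stages was printed once. Other filters, distances and overlaps were tried.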

Additional observations from a re-analysis of the deposited data

How the results depend on the processing

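Of 62 alternatives to 15 counts, 50 left the count within 1.5 times. With a fold enrichment above 5, H3K27me3 near a TSS was counted at 0 of 9 genes in NSCs (2 at the filter of the study), 1 in OPCs (4) and 1 in NFOs (3). Overlapping marks were then counted at 0 in NSCs (2) and 1 in OPCs (2). With all listed peaks, overlapping marks in NFOs were at 2 genes in place of 1, Gli3 being added. Within 1 kb of a TSS, H3K27me3 in NSCs was at 1 gene in place of 2. With an OLIG2 fold enrichment above 10, 1 gene had a peak in OPCs (4) and 2 in NFOs (4), with 2 peaks in OPCs (6) and 2 in NFOs (5), and 1 OPC peak overlapped an NFO peak (2). H3K4me3 counts stayed within 1.5 times under each alternative, but with a fold enrichment above 5 the OPC count was 6 of 9 in place of 9 (Smo, Gli1 and Gli3 being lost) beside 5 in NFOs, and the RIP-Seq count was 0 under all 4. No replicates exist to leave out, and the read depth behind each list is unknown, so the absence of a peak is no more than its absence from the list. No paired analysis was possible because each condition has 1 library.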
